A study of Dugesia japonica with 157 samples.

Results

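The rows of 10 identifiers, DjGI000001 to DjGI000010, were followed through tables of sequenced body sections of the planarian Dugesia japonica. A row identifier in these tables has a first part, then a numbered suffix, and rows that share a first part differ in the suffix. All rows whose first part is one of these 10 were taken, whatever their values, which gave 148 of the 25566 rows of each table. DjGI000001 had 32 rows, DjGI000002 had 23, DjGI000003 had 31, DjGI000004 had 21, DjGI000005 had 12, DjGI000006 had 6, DjGI000007 had 11, DjGI000008 had 6, and DjGI000009 and DjGI000010 had 3 each. The tables held 19543 first parts in all, 3146 of them with 2 or more rows.

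The study cut whole animals of the strain AF into ordered sections and sequenced polyadenylated RNA of each one, in 3 series along the anterior-posterior, the dorsal-ventral and the right-left axis. The labels name no treatment, no age and no replicate animals, so sections stood in for replicates and every p-value below measures the spread between sections of 1 series, not between animals. Sections with a total under 20% of the median of their series were left out, and the section numbers of a series were split evenly into 3 parts. The kept sections were 19 anterior, 26 middle and 24 posterior ones, then 5 dorsal, 8 middle and 8 ventral ones, then 8 right, 15 middle and 14 left ones. Their totals ran from 175749 to 12945391 counts in the anterior-posterior series, from 623214 to 26807303 in the dorsal-ventral series and from 236421 to 13052596 in the right-left series. The total moved with place: in the dorsal-ventral series its median was 4323922 counts in dorsal, 14600694 in middle and 1874284 in ventral sections.

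Planarians are freshwater flatworms with a head at one end, a feeding tube in the trunk and muscle, gut, nerve and stem cells spread through the body, and sequencing of serial sections reads the place of an RNA along one axis at a time. In catalogues of assembled transcripts, entries with a common first part are often forms of 1 gene or copies of related genes that were grouped during assembly. Counts of such entries depend on how reads that match several of them were shared out, so rows of 1 first part are uncertain as separate genes. The tables hold neither names, sequences nor lengths for these identifiers, so no function is given and levels are CPM, counts scaled to a common section total with TMM factors and not per length.

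Many of the 148 rows had few counts. In the dorsal-ventral series 99 rows (66.9%) reached 5 counts in no fewer than 10% of sections, the condition for a test, against 71.5% of all 25566 rows. In the right-left series 84 rows (56.8%) met it, against 64.4% of all rows, and in the anterior-posterior series 63 rows (42.6%), against 53.9% of all rows. Of the rest, 28, 36 and 39 rows had no count at all in the kept dorsal-ventral, right-left and anterior-posterior sections, and 21, 28 and 46 had some counts but too few. The 63 rows tested in the anterior-posterior series were tested in the other series as well, 48 rows were tested in none, and 24 had no count in any kept section. No count over a whole series allows at most 0.0199 CPM in the anterior-posterior, 0.0195 in the dorsal-ventral and 0.0273 in the right-left series (3 counts of the summed total, counting error only). At the edge of the condition, 3 rows with enough counts in 7 of 69 anterior-posterior sections were tested at means of 0.420 to 3.26 CPM, and DjGI000001_011, with enough counts in 6 sections and a mean of 0.478 CPM, was not. For dorsal-ventral sections, 4 rows just inside the condition (3 of 21) had means of 0.177 to 0.440 CPM, and 8 just outside it (2 sections) had 0.165 to 0.707 CPM. In the right-left series 6 rows just inside (4 of 37 sections) had means of 0.208 to 0.434 CPM, and 3 just outside (3 sections) had 0.192 to 0.911 CPM.

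Rows with 1 first part differed widely in level. The tested row with the most counts stood a median of 111-fold above the tested row with the fewest in the dorsal-ventral series, 35.7-fold in the right-left series and 24.6-fold in the anterior-posterior series (median over the 10 first parts). On the log2(mean CPM + 1) scale the SD between rows of 1 first part had a median of 1.46, 1.35 and 1.23 in the dorsal-ventral, right-left and anterior-posterior series. In all other first parts with 2 or more tested rows that median SD was 0.19, 0.15 and 0.09, so that most of those first parts held rows of nearly the same level. Most first parts in that comparison have fewer rows. Among first parts with 6 or more tested rows the median SD was 1.46 for 6 of the 10 and 0.62 for 132 others in the dorsal-ventral series, 1.34 for 6 and 0.41 for 113 others in the right-left series, and 1.30 for 5 and 0.36 for 94 others in the anterior-posterior series. The upper quartile of the others was 1.34, 1.29 and 1.19, so a spread of this size was also found among other first parts with many rows. No 2 tested rows of 1 first part had equal counts in every section, here or in the rest of the tables.

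**Figure D1:**
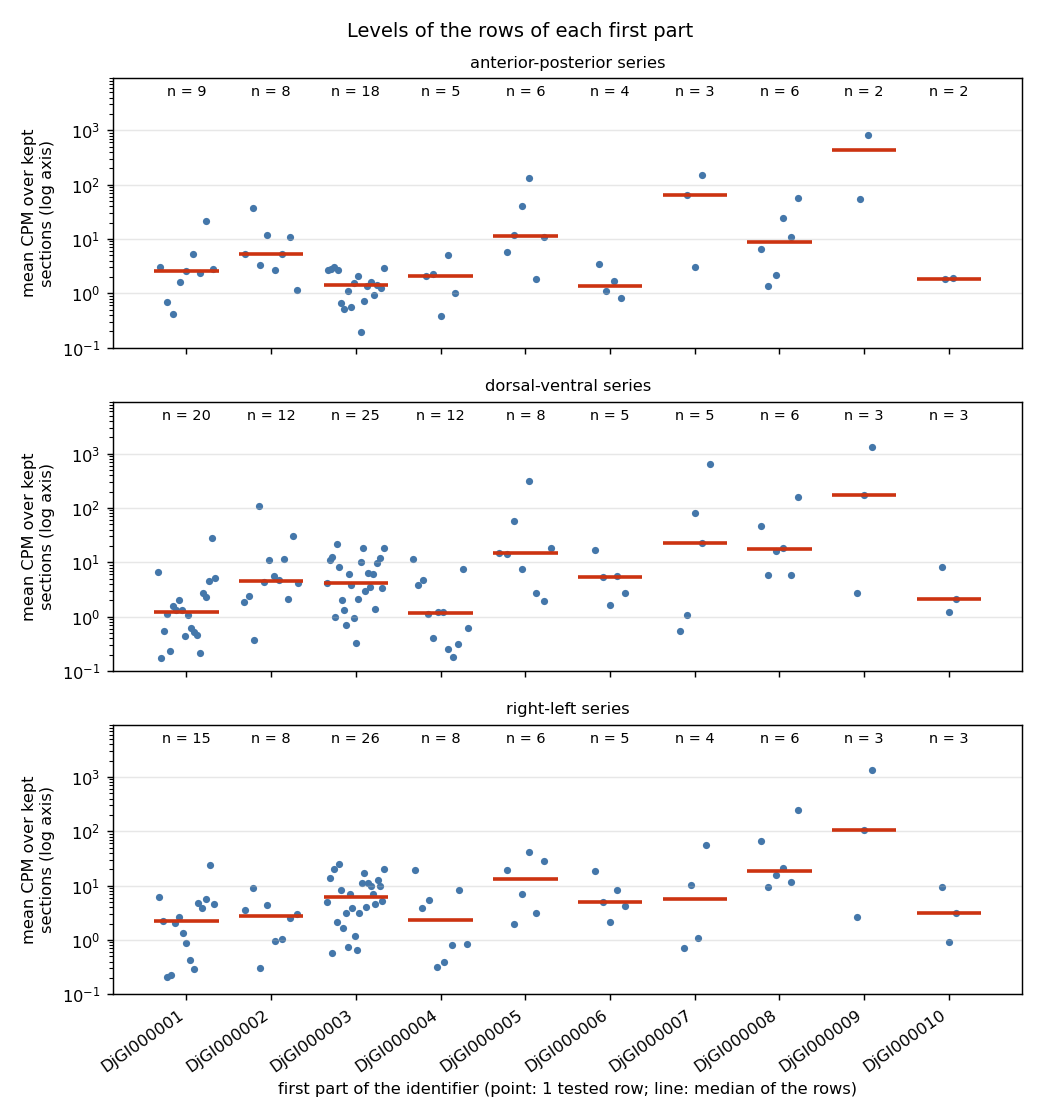
Mean CPM over the kept sections (log axis) of every tested row, by first part, in the anterior-posterior, dorsal-ventral and right-left series. Each point is 1 row, the line is the median of the rows and n is the number of rows tested. DjGI000009 holds the highest row in each series, at 810, 1316 and 1327 CPM, and rows of most first parts spread over a wide range of levels.

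DjGI000009 was the highest of the 10. DjGI000009_003 averaged 810 ± 389 CPM in anterior-posterior (SD, n = 69 sections), 1316 ± 615 in dorsal-ventral (n = 21) and 1327 ± 547 in right-left sections (n = 37), and held 93.7%, 88.1% and 92.4% of the summed level of its first part. DjGI000009_002 averaged 54.1 ± 58.4, 174 ± 73.2 and 107 ± 60.9 CPM. DjGI000009_001 was tested in the dorsal-ventral and right-left series only, at 2.77 and 2.69 CPM. The order of these 3 rows was the same in each series in which all were tested.

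DjGI000007, DjGI000005 and DjGI000008 also had 1 leading row each. Each is set beside the row with the lowest mean over the 3 series among rows tested in all of them, which need not be the lowest in every series. DjGI000007_008 averaged 149 ± 183 CPM in anterior-posterior, 655 ± 906 in dorsal-ventral and 55.5 ± 71.3 in right-left sections, and DjGI000007_005 averaged 3.11, 22.5 and 1.10 CPM. DjGI000005_009 averaged 131 ± 167, 307 ± 325 and 42.3 ± 49.9 CPM, and DjGI000005_010 averaged 1.84, 2.76 and 3.07 CPM. The SDs of both leading rows exceeded their means in each series, so their level changed strongly from section to section. DjGI000008_006 averaged 55.9 ± 43.8, 162 ± 81.7 and 251 ± 207 CPM, against 1.34, 5.79 and 9.29 CPM for DjGI000008_002. All 6 rows of DjGI000008 were tested in each series, the only first part with more than 3 rows of which that was so.

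The other first parts were lower, and their rows are paired in the same way. DjGI000002_007 averaged 37.8 ± 69.7 CPM in anterior-posterior, 110 ± 133 in dorsal-ventral and 8.95 ± 11.3 in right-left sections, and DjGI000002_008 averaged 3.26, 4.39 and 0.310 CPM. DjGI000001_031 was close to even in the 3 series, at 21.0 ± 18.1, 27.6 ± 14.5 and 24.2 ± 11.4 CPM, while DjGI000001_025 averaged 1.60, 0.515 and 0.886 CPM. DjGI000001_031 alone held 49.9%, 45.3% and 40.2% of the summed level of the 32 rows of its first part. DjGI000004_003 averaged 2.09 ± 7.01, 11.4 ± 5.43 and 19.1 ± 18.3 CPM, and DjGI000004_012 averaged 0.382, 1.19 and 0.810 CPM. DjGI000006_001 averaged 3.40 ± 6.47, 17.1 ± 9.03 and 18.3 ± 15.9 CPM, and DjGI000006_006 averaged 0.833, 2.73 and 4.21 CPM. DjGI000010_001 averaged 1.80 ± 3.85, 8.34 ± 4.06 and 9.58 ± 8.63 CPM, and DjGI000010_003 averaged 1.92, 2.14 and 3.11 CPM, so these rows lay closest together and their order changed in the anterior-posterior series.

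DjGI000003 had no leading row. Its highest row held only 10.4% of the summed level in the anterior-posterior series (DjGI000003_005), 13.1% in the dorsal-ventral and 11.7% in the right-left series (DjGI000003_007 in both). DjGI000003_007 averaged 2.64 ± 7.15 CPM in anterior-posterior, 22.2 ± 15.5 in dorsal-ventral and 24.6 ± 17.9 in right-left sections, and DjGI000003_010 averaged 0.504, 1.30 and 3.10 CPM. With 18, 25 and 26 rows tested it supplied the most tested rows of the 10.

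The order of rows within a first part was partly kept between the series. The same row was the highest in all 3 series in 7 of the 10 first parts. In the 7 first parts with 4 or more rows tested throughout, the Spearman correlation of the rows' mean CPM between 2 series had a median of 0.750 and ranged from 0.238 (DjGI000002, dorsal-ventral with right-left, 8 rows) to 1 (DjGI000006 between any 2 series, 4 rows, and DjGI000008, dorsal-ventral with right-left, 6 rows). These are correlations across rows, which share sections and are not independent.

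Rows of 1 first part were not closely alike in their course over the sections. The Pearson correlation of log2(CPM + 1) over the kept sections had a median of 0.196 over 268 pairs of rows with the same first part in the anterior-posterior series, 0.199 over 691 pairs in the dorsal-ventral and 0.180 over 538 pairs in the right-left series. Pairs of these rows with different first parts had medians of 0.102, 0.0434 and 0.0836. Pairs within all other first parts had medians of 0.626, 0.626 and 0.525. Among first parts with 6 or more tested rows the median of the first parts' own median correlations was 0.173 for 5 of the 10 and 0.597 for 94 others in the anterior-posterior series, 0.205 for 6 and 0.558 for 132 others in the dorsal-ventral series, and 0.104 for 6 and 0.490 for 113 others in the right-left series. All pairs share their sections and depth, so these are descriptions.

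For rows with a mean of at least 10 CPM the median over all pairs within first parts was higher in 2 of the 3 series. DjGI000003 gave 21 of the 47 dorsal-ventral and 28 of the 43 right-left pairs. The median of a first part rose in DjGI000003 and DjGI000007 in both series and in DjGI000002 in the dorsal-ventral one. It fell in DjGI000005 (0.120 to -0.336 dorsal-ventral, 0.0970 to -0.262 right-left), DjGI000008 and DjGI000009 in both. In the dorsal-ventral series 28 such rows gave a median of 0.571 within first parts, 0.0717 between them and 0.910 within other first parts. In the right-left series 23 rows gave 0.350, 0.0967 and 0.751. In the anterior-posterior series 15 rows gave 0.195, -0.0851 and 0.772. At this level, too, the pairs within the 10 first parts lay below the pairs within other first parts.

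**Figure D2:**
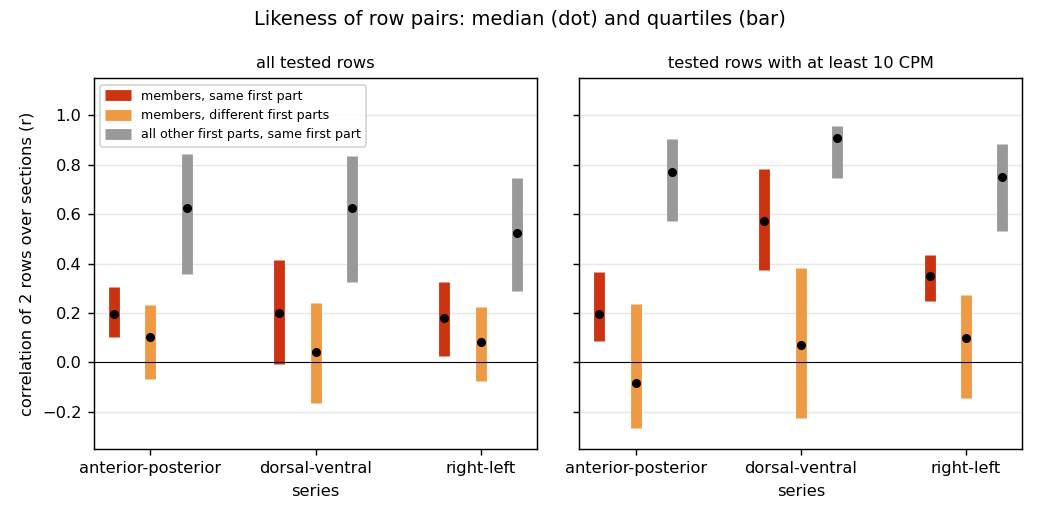
Correlation of log2(CPM + 1) over the kept sections for pairs of rows: members with the same first part, members with different first parts, and pairs within all other first parts, in each series, for all tested rows (left) and rows with at least 10 CPM (right). Dots are medians and bars run between the quartiles. The dorsal-ventral medians among rows with at least 10 CPM are 0.571, 0.0717 and 0.910.

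First parts differed in how alike their rows were. In the dorsal-ventral series and for rows with at least 10 CPM, the 3 rows of DjGI000007 correlated at 0.844 to 0.906, the 4 rows of DjGI000002 at 0.622 to 0.874 and the 7 rows of DjGI000003 at 0.287 to 0.885. The 5 rows of DjGI000005 ranged from -0.59 to 0.939 with 6 of 10 pairs negative, and the 4 rows of DjGI000008 from -0.204 to 0.853. The most alike pair above 20 CPM there was DjGI000005_007 with DjGI000005_009 at 0.939. The least alike was DjGI000009_002 with DjGI000009_003 at -0.625, a value that rested on section 26 and was -0.138 over the other 20 sections. In the right-left series DjGI000008_001 with DjGI000008_006 were the most alike at 0.876, and DjGI000005_009 with DjGI000005_012 the least at -0.262, or -0.0764 without section 8. In the anterior-posterior series DjGI000007_004 with DjGI000007_008 were the most alike at 0.551 and DjGI000009_002 with DjGI000009_003 the least at 0.128, so no pair of rows above 20 CPM was closely alike there.

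Along the dorsal-ventral series, rows of 3 different first parts shared a course. In DjGI000007_008 the level was 90.2 to 524 CPM in the middle sections (lowest to highest, median 133, n = 8), against 1601, 678, 716, 409 and 161 CPM in the 5 dorsal sections in order and 145 to 4224 CPM in ventral sections (median 662, n = 8). In DjGI000005_009 it was 49.3 to 256 CPM in the middle sections (median 74.2), against 794, 385, 369, 149 and 126 CPM in dorsal and 69.6 to 1361 CPM in ventral sections (median 316). In DjGI000002_007 it was 16.6 to 63.4 CPM in the middle sections (median 27.9), against 161, 71.9, 177, 62.7 and 34.1 CPM in dorsal and 19.1 to 591 CPM in ventral sections (median 125). All 3 rows were highest in section 26, the most ventral section kept, and the middle sections overlapped with the end sections in each. In sections of whole tissue, fewer cells that hold an RNA and less of it per cell cannot be told apart. DjGI000007_008 correlated with DjGI000005_009 at 0.967 and with DjGI000002_007 at 0.929 over the 21 sections. Without section 26 the values were 0.961 and 0.903. Among rows with at least 10 CPM, the highest of the 47 pairs with 1 first part was 0.939. Pairs between first parts were more numerous, at 331, so their highest value is not on an equal footing. The medians were 0.571 within first parts and 0.0717 between them.

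The test of middle against end sections (edgeR quasi-likelihood, Benjamini-Hochberg over 18291 rows) called 8 of the 99 rows as higher at the ends (8.08%), against 4.41% of all rows tested. They were DjGI000002_007, DjGI000002_014, DjGI000002_015, DjGI000002_020, DjGI000005_006, DjGI000005_007, DjGI000005_009 and DjGI000007_008. DjGI000002_007 had a log2 fold change of -2.08 ± 0.47 (middle over ends, SE, adjusted p = 0.00573), and DjGI000005_007 one of -2.07 ± 0.46 (adjusted p = 0.00558). DjGI000005_007 averaged 19.6 ± 10.8 CPM in middle, 87.5 ± 52.1 in dorsal and 77.0 ± 58.0 in ventral sections (SD, n = 8, 5 and 8). Only DjGI000010_003 was called as higher in the middle, against 4.69% of all rows tested. It averaged 5.00 ± 2.05 CPM in middle, 0.819 ± 1.25 in dorsal and 0.102 ± 0.231 in ventral sections, had counts in 8 of 8, 2 of 5 and 2 of 8 of them, and a log2 fold change of 3.95 ± 0.84 (adjusted p = 0.00367). Over the 99 rows the median log2 fold change was -0.44, against 0.12 over all rows tested.

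These calls moved with the section total. Of the 28 rows with at least 10 CPM in the dorsal-ventral series, 11 (39.3%) had a correlation below -0.5 between log2(CPM + 1) and the log2 section total, against 11.8% of all rows at that level. They were 4 rows of DjGI000002, 3 of DjGI000005, 3 of DjGI000007 and DjGI000009_002. The correlation was -0.850 for DjGI000007_008, -0.876 for DjGI000005_009 and -0.833 for DjGI000002_007, while it was 0.731 for DjGI000010_003, the row that was higher in the middle. The log2 count of DjGI000007_008 rose by only 0.08 for each unit of log2 total, where 1 means a count in proportion to the total, and its counts ranged from 338 to 4307 over a 43.0-fold range of totals. With the log2 section total as a term in the model, no row of the 10 first parts was called in either direction, and DjGI000002_007 and DjGI000005_007 had log2 fold changes of -0.67 and -0.66. With all sections kept, these rows had log2 fold changes of -1.48 and -1.49 and were not called. DESeq2 without the total called 18 rows as higher at the ends and 1 as higher in the middle. The share of all rows was not taken for DESeq2 or the other alternatives, so no excess of these rows is read from such counts. Leaving out each section in turn changed the condition for a test and raised the rows tested from 99 to between 104 and 107. In these fits 3 to 11 rows were called as higher at the ends, and DjGI000002_007, DjGI000005_007 and DjGI000005_009 in all 21. The total was lower at the ends than in the middle in this series, so place and total cannot be told apart for these rows.

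**Figure D3:**
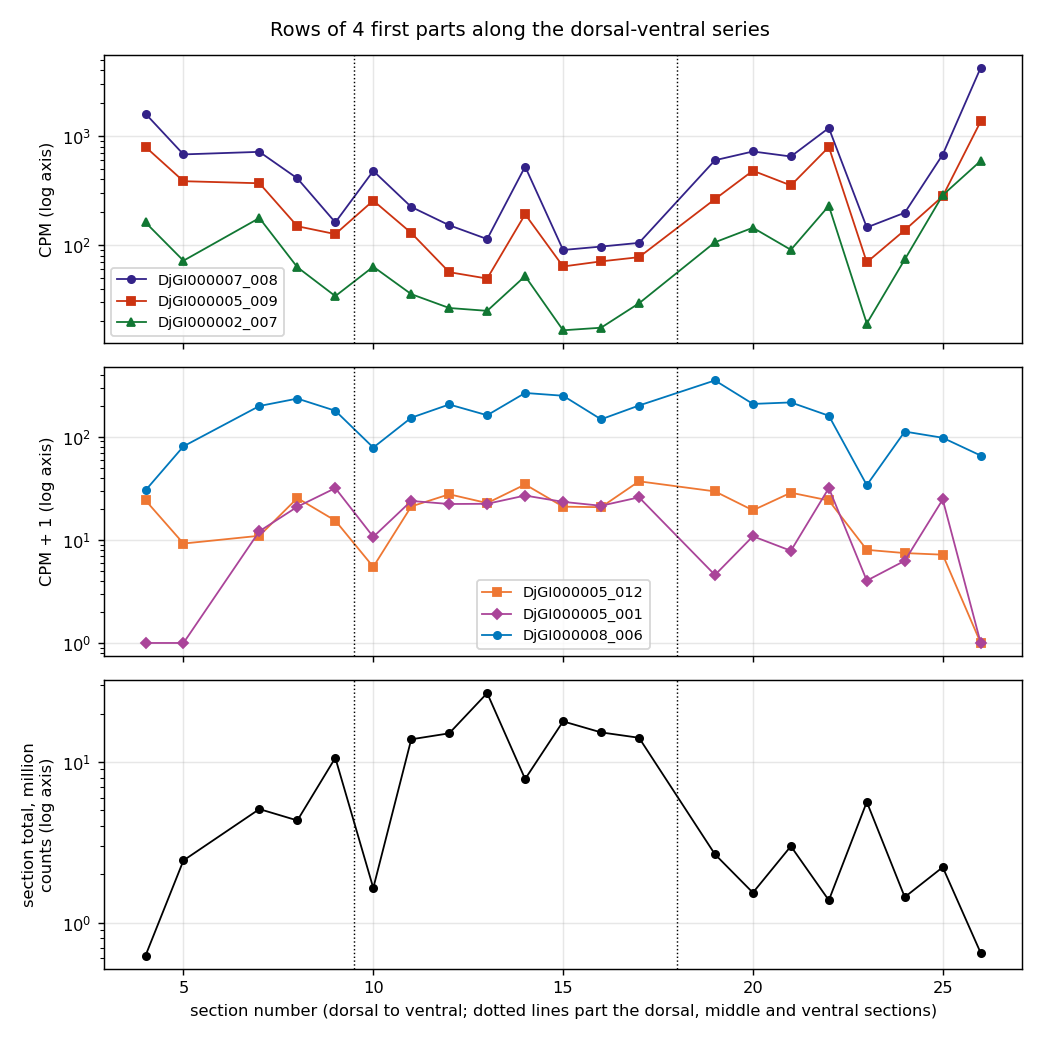
Dorsal-ventral series, sections in order from dorsal to ventral. Top, CPM of DjGI000007_008, DjGI000005_009 and DjGI000002_007; middle, CPM + 1 of DjGI000005_012, DjGI000005_001 and DjGI000008_006; bottom, section total, all on log axes, with dotted lines between the dorsal, middle and ventral sections. The rows in the top panel follow one another (correlations of 0.967 and 0.929 with DjGI000007_008), are highest in section 26 and run against the total.

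In the other series fewer rows ran against the total. The correlation with the log2 total was -0.797 for DjGI000007_008 and -0.678 for DjGI000005_009 in the anterior-posterior series, where 13.3% of the 15 rows with at least 10 CPM and 3.61% of all such rows were below -0.5. It was -0.729 and -0.658 in the right-left series, where DjGI000007_004 was the third row below -0.5 and the shares were 13.0% of 23 rows and 2.97% of all rows. DjGI000007_008 and DjGI000005_009 correlated with each other at 0.747 in the anterior-posterior and 0.579 in the right-left series. Among dorsal-ventral sections the 10 rows of DjGI000002, DjGI000005 and DjGI000007 below -0.5 correlated at a median of 0.849 in the 33 pairs between first parts and 0.859 in the 12 pairs within 1. These rows were picked for their correlation with the same totals, so high values among them follow in part from the choice, and nothing is read from them about a shared first part. What their course shares with the total was not tested further.

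**Figure D4:**
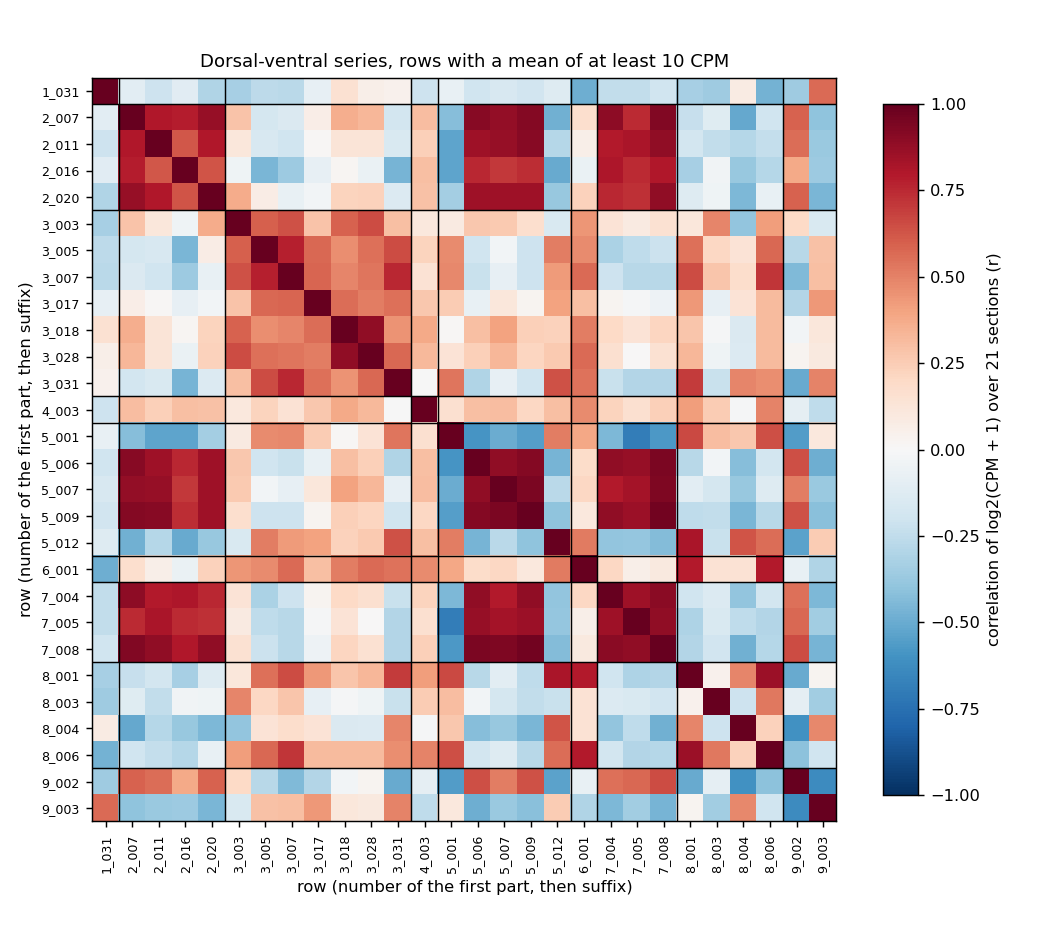
Correlation of log2(CPM + 1) over 21 dorsal-ventral sections for the 28 rows with at least 10 CPM, ordered by first part, with lines between first parts. Red is positive and blue is negative. Rows of DjGI000002 and DjGI000007 and 3 of the 5 rows of DjGI000005 form high values across first parts, while DjGI000005_001 and DjGI000005_012 stand apart from the other rows of DjGI000005.

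DjGI000005 was divided. DjGI000005_012 averaged 22.8 ± 9.74 CPM in middle, 16.0 ± 7.45 in dorsal and 14.7 ± 11.1 in ventral sections (SD), and correlated at -0.403 with DjGI000005_009 and at 0.512 with DjGI000005_001. Without section 26, where it had no count, the first value was -0.0996 and the second 0.281. DjGI000005_001 averaged 21.1 ± 4.97 CPM in middle, 12.4 ± 13.3 in dorsal and 10.4 ± 11.0 in ventral sections, and correlated at -0.551 with DjGI000005_009. The test of whether rows of 1 first part differ in their change between the middle and the ends (edgeR diffSpliceDGE, Benjamini-Hochberg over 2106 first parts) called DjGI000005 (adjusted p = 0.00149) and DjGI000010 (adjusted p = 0.0029), 2 of 10, against 0.855% of all first parts tested. Few of all these first parts held as many tested rows as DjGI000005, and the share was not matched for number of rows. Within DjGI000005 the middle-to-ends change of DjGI000005_001 stood 1.70 natural log units, not log2, above the rest of its first part (adjusted p = 0.0407). That of DjGI000005_012 stood 1.50 natural log units above the rest (adjusted p = 0.0602). Within DjGI000010 the change of DjGI000010_003 stood 2.59 natural log units above the rest (adjusted p = 0.0511). Neither first part was called once the section total entered the model.

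The other tests of the dorsal-ventral series called few rows. None of the 99 rows was called by the edgeR test of dorsal against ventral sections, against 0.492% of all rows called as higher in dorsal and 0.306% as higher in ventral ones. At an unadjusted p under 0.05, 13 rows were higher in dorsal and 0 in ventral sections, and DESeq2 called 1 row, as higher in dorsal sections. The share of all rows was not taken for these counts, so no lean of these rows to the dorsal side is read from them. None of the 10 first parts was called as holding rows that differ between dorsal and ventral sections, against 0.332% of all first parts; 3 had an unadjusted p under 0.05, and DjGI000004 was nearest (adjusted p = 0.0811). The test of a smooth course over the sections, a natural spline in section number, called 10 of the 99 rows (10.1%), against 16.4% of all rows. Those with the smallest adjusted p among rows with at least 10 CPM were DjGI000002_007 (adjusted p = 0.00167), DjGI000007_008 (0.0076) and DjGI000005_009 (0.00834). A fit with a term for the section total called 4 rows, of which DjGI000008_001 and DjGI000010_003 were among the 10.

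With counts summed over all rows of a first part, the spline called 4 of the 10 in the dorsal-ventral series, against 18.7% of all first parts. The sum of DjGI000002 averaged 190 ± 107 CPM in dorsal, 69.6 ± 36.3 in middle and 312 ± 287 in ventral sections (SD, n = 5, 8 and 8; adjusted p = 0.000449). The sum of DjGI000007 averaged 811 ± 609, 274 ± 221 and 1214 ± 1441 CPM (adjusted p = 0.00106), and that of DjGI000005 averaged 511 ± 318, 187 ± 85.7 and 609 ± 516 CPM (adjusted p = 0.00374). DjGI000008 averaged 219 ± 117, 281 ± 82.0 and 250 ± 162 CPM (adjusted p = 0.0372), without the low middle sections of the other 3. With a term for the section total, the spline called none of these 4. It called only DjGI000009, which it had not called without that term (adjusted p = 0.399).

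Along the anterior-posterior series, the spline called 22 of the 63 rows (34.9%), against 22.6% of all rows tested. Of the 22, 12 were rows of DjGI000003 and 20 had a mean below 5 CPM. The 12 rows of DjGI000003 averaged 0.560 to 2.89 CPM and had counts in only 9 to 21 of 69 sections, and 1 section held 12.3% to 52.0% of a row's summed level. The count of calls differed between settings: 3 of 63 rows were called by DESeq2, 4 of 15 after thinning all sections to the smallest total, and 1 of 12 when 5 or more counts were asked in at least 50% of sections. The share of all rows was not taken for these settings. All 12 rows of DjGI000003 correlated positively with the section total. A fit with a term for the total called 26 rows, 18 of them among the 22 and all but DjGI000003_012 of these rows of DjGI000003.

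The 2 rows with at least 10 CPM called by the spline were DjGI000009_003 (adjusted p = 0.00366) and DjGI000005_006 (adjusted p = 0.00951). DjGI000009_003 had 411 to 1452 CPM in anterior (median 982), 226 to 1446 in middle (median 812) and 93.2 to 2061 in posterior sections (median 697), so all parts overlapped, and the peak of its running mean was at section 58. It was called under each alternative of this test, with adjusted p from 0.000758 to 0.008. DjGI000005_006 had a median of 0.871 CPM in anterior, 3.31 in middle and 0.453 in posterior sections and a highest value of 245 CPM, in section 78, the most posterior one, which held 29.5% of its summed level. It was not called once the section total entered the model (adjusted p = 0.152). Among sums per first part only DjGI000009 was called (adjusted p = 0.0114), 1 of 10, against 23.8% of all first parts.

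Few rows were called between anterior and posterior sections. None of the 63 was called as higher in anterior sections, against 1.73% of all rows tested, with 3 rows at an unadjusted p under 0.05 and none by DESeq2. The row DjGI000006_002 was called as higher in posterior sections, against 0.711% of all rows, with 0.141 CPM on average in anterior and 2.25 in posterior sections, counts in 3 of 19 and 7 of 24 of them, and a log2 fold change of -3.41 ± 0.96 (anterior over posterior, SE, adjusted p = 0.0317). DjGI000002_008 was called as higher in the middle, against 1.33% of all rows, with 7.09 CPM in middle, 0.324 in anterior and 1.42 in posterior sections (log2 fold change 3.18 ± 0.83, adjusted p = 0.0225), of which section 30 alone, at 88.5 CPM, held 39.4% of the summed level. Neither row was called by DESeq2. None was called as higher at the ends, against 0.261% of all rows, with 4 at an unadjusted p under 0.05 and none by DESeq2. No first part was called as holding rows that differ between anterior and posterior sections (0.437% of all first parts) or between the middle and the ends (0.125% of all), with 3 at an unadjusted p under 0.05 in each of these diffSpliceDGE tests.

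Along the right-left series, the spline called 7 of the 84 rows (8.33%), against 9.17% of all rows tested. DjGI000009_003 (adjusted p = 0.0016) had 672 to 1722 CPM in right (median 1027), 408 to 1742 in middle (median 991) and 978 to 2619 in left sections (median 1565). Its left sections were the highest on average, at 1737 ± 601 CPM, against 1111 ± 345 in right ones (SD, n = 14 and 8), but the ranges overlapped and the test of right against left did not call it (log2 fold change -0.64 ± 0.23, right over left, adjusted p = 0.412). DjGI000005_009 (adjusted p = 0.00773) had 21.2 to 278 CPM in right (median 39.5), 4.78 to 86.7 in middle (median 23.9) and 5.78 to 101 in left sections (median 22.8). DjGI000005_001 (adjusted p = 0.0154) had 0 to 43.2 CPM in right (median 7.28), 0 to 58.5 in middle (median 27.7) and 0 to 60.5 in left sections (median 8.96). By median DjGI000005_009 was highest in right and DjGI000005_001 in middle sections, but the ranges overlapped, and the tests of a difference between rows did not call DjGI000005 (adjusted p = 0.974 between right and left, 0.742 between the middle and the sides). DjGI000009_003 was still called once the section total entered the model, and DjGI000005_009 (adjusted p = 0.414) and DjGI000005_001 (adjusted p = 0.0575) were not. DjGI000009_003 was called under every alternative of this test.

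**Figure D5:**
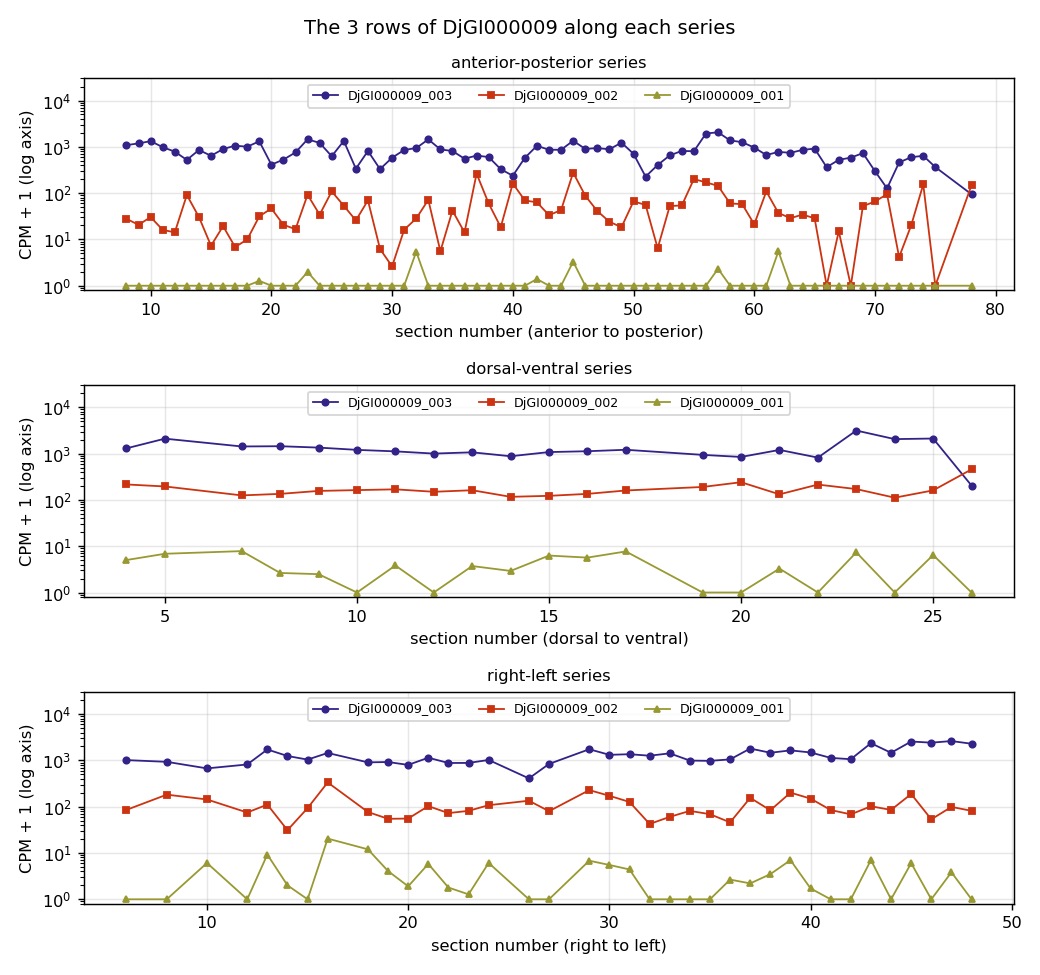
CPM + 1 (log axis) of the 3 rows of DjGI000009 in every kept section of the anterior-posterior, dorsal-ventral and right-left series. DjGI000009_003 is above DjGI000009_002 in nearly all sections and highest on average in left sections (1737 CPM, against 1111 in right ones), and it is lowest in section 78 of the first and section 26 of the second series.

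No other test called a row of the 10 first parts in the right-left series. No row was called as higher in right or in left sections, against 0.0425% and 0% of all rows, with 5 and 3 at an unadjusted p under 0.05 and none by DESeq2. No row was called as higher in the middle or at the sides, against 0.778% and 0.213% of all rows, with 5 and 3 at an unadjusted p under 0.05, while DESeq2 called 1, DjGI000009_003, as higher at the sides. No first part was called as holding rows that differ between right and left sections (0.161% of all first parts) or between the middle and the sides (0.0535%), with 3 and 1 at an unadjusted p under 0.05. Among sums per first part the spline called DjGI000004 (adjusted p = 0.0142) and DjGI000009 (adjusted p = 0.000697), 2 of 10, against 9.78% of all. The sum of DjGI000004 averaged 21.8 ± 21.3 CPM in right, 47.4 ± 18.2 in middle and 41.9 ± 28.0 in left sections, and that of DjGI000009 averaged 1246 ± 382, 1160 ± 349 and 1843 ± 619 CPM (SD, n = 8, 15 and 14).

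The computed centres of rows with 1 first part differed in some first parts more than in others. In the anterior-posterior series the mean section number weighted by CPM was 34.7 in DjGI000005_012 and 57.7 in DjGI000005_006, 41.1 in DjGI000002_007 and 54.1 in DjGI000002_011, but 41.8 in DjGI000007_008 and 45.3 in DjGI000007_004. In the dorsal-ventral series it was 14.7 in DjGI000005_012 and 17.9 in DjGI000005_006, and it differed least in DjGI000009 (0.760 sections) and DjGI000008 (0.906 sections). DjGI000005_006 was highest in section 26, the most ventral one kept, at 85.3 CPM, where DjGI000005_012 had 0 CPM. Its highest anterior-posterior section was 78, the most posterior one. A single high section at an end moves a centre far, and the centres were not taken without these sections. The gaps between these rows may therefore rest on 1 section in each series. In the right-left series it was 28.2 in DjGI000009_002 and 31.9 in DjGI000009_003. These centres, of rows with at least 10 CPM, carry no error of their own, since each series is 1 set of sections.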

How the data were processed

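For 157 labelled sections, the deposited values are estimated counts per row, not scaled to depth, in 1 table for each of the 3 series. The submitters' processing notes name Salmon, BWA 0.7.17-r1188, fastp 0.21.0 and bcl2fastq 2.20.0. What each tool did and which transcripts were the reference is not given in the sources used here. Polyadenylated RNA was prepared with Direct-TRI and Lasy-Seq version 1.1, per the labels' protocols. The 0.0256% of values with decimals were rounded. No single section could be given to 7 anterior-posterior columns, because with punctuation dropped their names equal those of other sections. A plain reading would make them sections 1 to 7, which have no values here.

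Over all rows of a series, quasi-likelihood F-tests were run in edgeR 4.0.16 (R 4.3.3) after TMM scaling, and a row was called at a Benjamini-Hochberg adjusted p under 0.05. The tests were a natural spline of the section number (4 degrees of freedom), the first part of a series against the last, the middle against the mean of the ends, the spline on counts summed per first part, and diffSpliceDGE, which asks whether rows of 1 first part differ in a change. Sections were numbered as libraries in the same order, so place and library order cannot be told apart. Fits were tested on simulated data first. Alternatives were DESeq2 1.42.0 and its size factors, other filters on sections and rows, thinned counts, the log2 section total as a term, and each dorsal-ventral section left out. Counts at an unadjusted p under 0.05, or under an alternative, are for the 10 first parts only. The share of all rows was not taken for them.

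Rows named are, per first part, the rows with the highest and lowest mean over the series among rows tested in all 3; per test and direction, the 2 largest called changes with at least 10 CPM in the higher region; per series, the 3 smallest adjusted p of the spline with at least 10 CPM; and per series, the most and least alike pair of 1 first part above 20 CPM. Other rows were named after their values were seen, and so was the comparison of rows with the section total. The members and lists were chosen with earlier results of these data known. Error bars and limits cover sections and counting error only.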

Additional observations from a re-analysis of the deposited data

How the results depend on the processing

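Counts of called rows moved by over 1.5 times under many alternatives, and no named row reversed its direction. The number of rows tested also differed between settings, so a changed count need not be a changed share. For the alternatives the share of all rows called was not taken. Against 22 of 63 anterior-posterior rows called by the spline, 64 of 109 were called with no filter on low counts. There were 4 of 15 with thinned counts, 3 of 63 by DESeq2 and 1 of 12 with counts asked in 50% of sections. In the dorsal-ventral series the 10 of 99 rows became 18 of 99 with DESeq2 size factors and 18 of 120 with no filter. They became 27 of 101 with all sections, 4 of 99 with the section total in the model and 26 of 99 by DESeq2. The 7 of 84 right-left rows became 21 of 112 with no filter and 27 of 77 with all sections. They became 3 of 30 with thinned counts, 11 of 84 with the section total and 4 of 48 with the stricter filter. Between anterior and posterior sections, 16 rows were called with no filter, 4 with the section total and 0 with thinned counts, DESeq2 or the stricter filter, against 1; between dorsal and ventral sections DESeq2 called 1, against 0. For the middle against the ends, the anterior-posterior count of 1 became 12 with no filter, 3 with the section total and 0 with all sections, thinned counts, DESeq2 or the stricter filter. The dorsal-ventral count of 9 became 2 with all sections, 0 with the section total and 19 by DESeq2. The right-left count of 0 became 1 with no filter and 1 by DESeq2.

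For sums per first part, the anterior-posterior count of 1 became 2 with DESeq2 size factors, no filter, all sections or DESeq2, and 3 with the section total; the dorsal-ventral 4 became 1 with the section total; and the right-left 2 became 4 with no filter, 5 with all sections and 4 with the section total. First parts whose rows differed between anterior and posterior sections numbered 5 with no filter and 1 with the section total, against 0, and between dorsal and ventral sections 1 with no filter, against 0. For the middle against the ends they numbered 4 with no filter and 1 with the section total in the anterior-posterior series, against 0, then 0 with the section total and 1 with the stricter filter in the dorsal-ventral series, against 2, and 1 with all sections in the right-left series, against 0. The median likeness within first parts in the anterior-posterior series was 0.0538 with thinned counts, 0.323 with Spearman correlation, 0.388 after a 5-section running mean and 0.0815 with the log2 total regressed out. The rise of the median over all pairs to 0.571 and 0.35 in the other series came with the restriction to rows of at least 10 CPM. It was not seen in every first part. The cause of these changes was not tested. The level spread moved by less than its spread between first parts under each alternative run.

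Leaving out each of the 21 dorsal-ventral sections gave 9 to 22 rows called by the spline, 4 to 12 by the middle against the ends, 0 by dorsal against ventral, 3 to 6 sums, and 0 to 1 first parts whose rows differ between dorsal and ventral sections, while 2 differed between middle and ends throughout. The spline count moved by over 1.5 times without section 7, 10, 14, 23, 24, 25 or 26, and the middle-against-ends count without section 12, 13, 15, 16 or 17. With 20 sections, 2 in place of 3 met the 10% condition, so 104 to 107 rows were tested, against 99. Some rows called in these fits, DjGI000002_013 and DjGI000005_004 among them, were not tested with all 21 sections. These moves therefore cannot be put down to the left-out section alone. No paired analysis was possible because each series is 1 set of sections and the section numbers do not pair samples across series. The stricter filter and the regression on the total were chosen after seeing the data. Depth limits rows with few counts: the median tested row had counts in 21 of 69 anterior-posterior, 18 of 21 dorsal-ventral and 27.5 of 37 right-left sections.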

Other observations

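Likeness between first parts was not the same in each series. DjGI000008_006 and DjGI000009_003, the highest rows of their first parts, correlated at 0.587 over the 69 anterior-posterior sections (0.522 without section 78), at -0.2 over the 21 dorsal-ventral sections and at -0.509 over the 37 right-left sections, where each section left out in turn gave -0.567 to -0.464. DjGI000006_001 correlated with DjGI000008_001 at 0.792 and with DjGI000008_006 at 0.794 in the dorsal-ventral series, and at 0.27 and 0.456 in the right-left series. These pairs were picked after all correlations had been seen, share sections and depth, and carry no test.

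The 7 anterior-posterior columns with no position had totals of 70569 to 1755117 counts. Of the 148 rows, 62 had counts in them, and none of these had counts there only.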
